A study of Rattus norvegicus with 52 samples.

Results

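Csrp3, Ankrd1 and Rrad are genes best known from striated muscle, and they were chosen because their signal in rat dorsal root ganglia was higher after an SN lesion than in the control of that lesion. They are 3 of 6028 genes that could be named on the arrays, and each is measured by 1 of 8455 probes. The ganglia were rat ganglia of the lumbar levels L4 to L6, the sensory ganglia whose neurons send 1 branch into the sciatic nerve and another through the dorsal root into the spinal cord. The samples fall into an SN series and a DR series, each taken at 6, 12, 24, 48 and 72 h and at 7 and 14 d, and into a control for each, CON(SN) and CON(DR). The labels leave both abbreviations unexplained. They are read here, from knowledge of the work, as sciatic nerve lesion (SN) and dorsal root lesion (DR). No allele, agent, strain, age or sham procedure is given in the sources used here, and all 16 groups share the same tissue. Every group is 1 RNA pool from 3 animals, hybridised in 3 to 5 two-colour channels, 52 in all. The channels are therefore repeated measurements of 1 pool, so errors and p-values below cover the spread between hybridisations of a pool and not the spread between animals.

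Muscle LIM protein, the product of Csrp3, is a small adaptor with LIM zinc fingers that sits at the Z-disc of the sarcomere and also enters the nucleus. Ankrd1 encodes the cardiac ankyrin repeat protein, which binds titin in the sarcomere, acts as a transcriptional cofactor in the nucleus and is induced in heart muscle under load. Rrad encodes a GTPase of the RGK family (Rad, Gem, Rem), whose members bind the beta subunits of voltage-gated calcium channels and lower the channels' current. In rodents, expression of the first of these genes has also been described in injured adult sensory neurons.

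The channels were of like brightness, the lower quartile lying between 67 and 69 and the upper between 376.5 and 397. The summed intensity of 17 measured neuron markers ran from 164699 to 235519 in SN channels and from 183777 to 195846 in CON(SN) channels. It ran from 165018 to 240806 in DR channels and from 191200 to 221070 in CON(DR) channels. With no other tissue beside it, this sum does not test the tissue label. A group of 4 DR channels stood apart from all others along principal component 1, which held 22.4% of the variance: DR14d replicates 2 and 3, DR48h replicate 4 and DR72h replicate 3, at 37.8 to 41.7 against at most 22.1 for any other channel. At the other end lay SN6h replicate 3 and DR7d replicate 1, at -34.8 and -35.1, with the next channel at -20.4. Values without these channels are given for the main results that moved when they were left out, beside the result or with the limits at the end.

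Csrp3 was the gene with the largest difference of the 3. Its normalised intensity was 91, 70 and 131 in the 3 channels of CON(SN), 84, 85 and 69 at 6 h and 79, 65 and 76 at 12 h after the SN lesion. It was 575, 395 and 399 at 24 h, 1923, 2001 and 1822 at 48 h and 2066, 2042 and 1824 at 72 h. At 7 d it was 618, 490 and 706, and at 14 d 770, 719 and 724. From 24 h on, every channel lay above every control channel, and the channels of 48 and 72 h lay above those of all other times. The mean at 72 h was 1977 ± 133, against 97.3 ± 31.0 in CON(SN) (SD, n = 3 channels each). In the linear model that gives every log2 difference below (group and dye as terms), this is a log2 difference of 4.34 ± 0.20 (SE) and a 20.3-fold level. The size of this fold depends on how background was treated, which is not given in the sources used here, and with 50 added to each value the largest log2 difference was 3.77 for Csrp3 and 2.16 for Ankrd1. At 48 h the log2 difference was 4.30 ± 0.20, at 24 h 2.21 ± 0.20, at 7 d 2.67 ± 0.20 and at 14 d 2.97 ± 0.20. At 6 and 12 h it was -0.25 ± 0.20 and -0.41 ± 0.20, with channels that overlapped the control, and the value at 6 h was -0.099 without SN6h replicate 3, a channel that stands apart. These values describe the choice of the gene and are not tested. In a whole ganglion, more cells that contain a transcript and more of it per cell cannot be told apart.

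Ankrd1 had intensities of 87, 63 and 54 in CON(SN), 91, 115 and 63 at 6 h and 65, 63 and 66 at 12 h after the SN lesion. They were 261, 236 and 214 at 24 h, 558, 426 and 464 at 48 h and 403, 397 and 462 at 72 h, then 256, 137 and 204 at 7 d and 336, 232 and 228 at 14 d. Again every channel from 24 h on was above every control channel. Its mean was 483 ± 68.0 at 48 h, against 68.0 ± 17.1 in CON(SN) (SD, n = 3 channels each), a log2 difference of 2.83 ± 0.21 and a 7.13-fold level. The log2 difference was 1.81 ± 0.21 at 24 h, 2.64 ± 0.21 at 72 h, 1.53 ± 0.21 at 7 d and 1.97 ± 0.21 at 14 d. At 6 h it was 0.39 ± 0.21 and at 12 h -0.06 ± 0.21, with channels that overlapped the control. Without SN6h replicate 3 the value at 6 h was 0.65.

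Rrad had intensities of 153, 151 and 137 in CON(SN), 140, 146 and 174 at 6 h, 179, 161 and 119 at 12 h and 224, 146 and 156 at 24 h after the SN lesion. They were 922, 913 and 1057 at 48 h, 790, 876 and 764 at 72 h, 362, 320 and 365 at 7 d and 326, 280 and 230 at 14 d. Rrad overlapped its control up to 24 h and lay wholly above it from 48 h on. Its mean was 964 ± 80.7 at 48 h, against 147 ± 8.72 in CON(SN) (SD, n = 3 channels each), a log2 difference of 2.68 ± 0.20 and a 6.43-fold level. At 24 h the log2 difference was 0.20 ± 0.20, at 72 h 2.43 ± 0.20, at 7 d 1.25 ± 0.20 and at 14 d 0.91 ± 0.20.

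**Figure D1:**
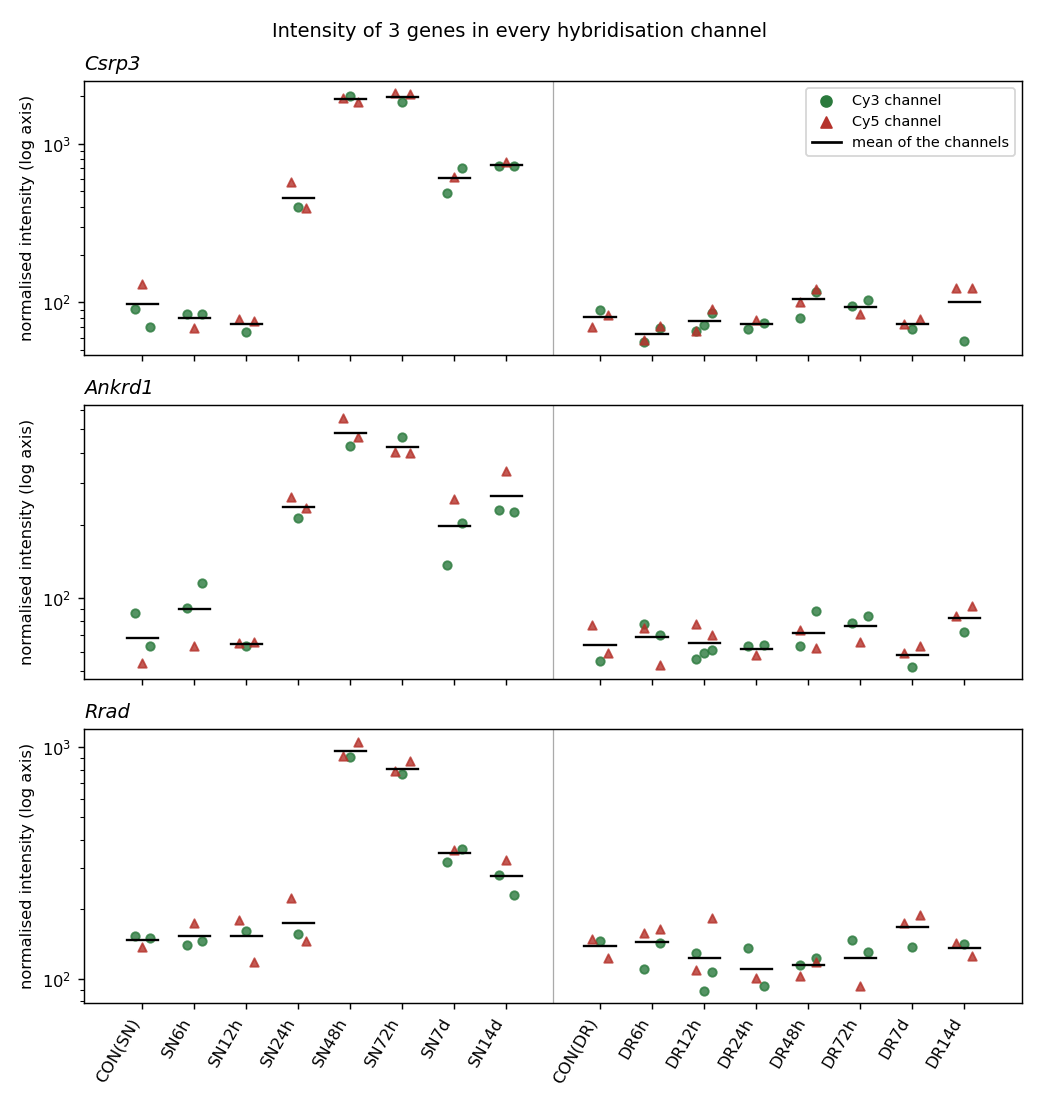
Normalised intensity (log axis) of Csrp3, Ankrd1 and Rrad in all 52 channels, by group; circles are Cy3 channels, triangles Cy5 channels and bars the mean of a group's channels. The SN channels from 48 h to 14 d lie above CON(SN) for all 3 genes, and the DR channels overlap CON(DR) at every time.

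The number of members with all SN channels above all CON(SN) channels was 0 of 3 at 6 and 12 h, 2 of 3 at 24 h and 3 of 3 at 48 h, 72 h, 7 d and 14 d. Over all 8455 probes this held for 6.35% at 6 h, 7.2% at 12 h, 7.9% at 24 h, 12.2% at 48 h, 6.85% at 72 h, 5.13% at 7 d and 9.9% at 14 d. All channels above the control at each of the 5 times from 24 h on were seen for 2 of 3 members and 1.1% of all probes. As the members were chosen by this contrast, nothing is read from these shares.

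The order of the levels differed in detail between the genes. For Csrp3 the highest mean was at 72 h and the next at 48 h, with overlapping channels, followed by 14 d and 7 d, whose channels did not overlap (719 to 770 against 490 to 706), and then 24 h, which overlapped 7 d. For Ankrd1 the order was 48 h, 72 h, 14 d, 24 h and 7 d. Of these neighbours only 72 h and 14 d had channels that did not overlap. For Rrad it was 48 h, 72 h, 7 d, 14 d and 24 h, where 48 and 72 h, 72 h and 7 d, and 14 d and 24 h did not overlap while 7 d and 14 d did. Expressed as the rise of the mean intensity over CON(SN) in percent of the gene's largest rise, the level at 24 h was 19.1% for Csrp3, 40.8% for Ankrd1 and 3.47% for Rrad. At 7 d the shares were 27.0%, 31.6% and 24.7% in the same order of genes. At 14 d they were 34.1%, 47.6% and 16.1%, higher than at 7 d for Csrp3 and Ankrd1 and lower for Rrad, although only the Csrp3 channels of the 2 times were separate.

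**Figure D2:**
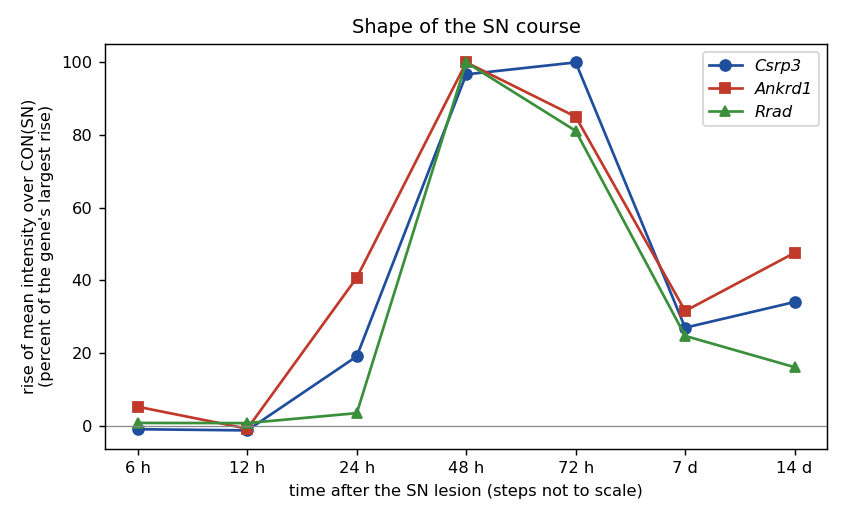
Rise of the mean intensity over CON(SN), in percent of each gene's own largest rise, at the 7 SN times. At 24 h Ankrd1 stood at 40.8%, Csrp3 at 19.1% and Rrad at 3.47%, and at 14 d at 47.6%, 34.1% and 16.1%.

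Over the 7 SN pools the log2 levels of Csrp3 and Ankrd1 had a Pearson r of 0.98 and a Spearman rho of 0.93, Csrp3 and Rrad 0.89 and 0.93, and Ankrd1 and Rrad 0.85 and 0.89. Over the 7 DR pools the same pairs had r of 0.66, -0.43 and -0.22 and rho of 0.64, -0.50 and -0.04. The pools of a series share their loop of arrays, and the SN values also reflect the choice of the genes.

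Over all probes, the authors' deposited coefficients and the channel fit correlated only in part. The r was 0.50 to 0.66 at the SN times and 0.38 to 0.60 at the DR times. The authors' deposited table, which gives log2 coefficients against their time zero, holds larger SN differences at 48 and 72 h for Csrp3 and Rrad and closer ones for Ankrd1. At 7 d Csrp3 was at 2.64 in the authors' deposited table and 2.67 in the channel fit. In the authors' deposited table Csrp3 was at 4.78 ± 0.26 (SE) at 48 h and 4.65 ± 0.26 at 72 h, so that its highest time was 48 h there and 72 h in the channel values. In the authors' deposited table Rrad was at 3.28 ± 0.22 at 48 h and 3.13 ± 0.22 at 72 h, and Ankrd1 at 2.96 ± 0.24 and 2.69 ± 0.24. At 6 h the authors' deposited table has values of 0.54 ± 0.26 for Csrp3, 0.46 ± 0.24 for Ankrd1 and 0.53 ± 0.22 for Rrad, where the channel fit gave -0.25, 0.39 and 0.06. At 24 h it has 0.59 ± 0.20 for Rrad, in the authors' deposited table, against 0.20 in the channel fit.

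After the DR lesion none of the 3 genes was called. The genes were chosen for the SN lesion and not for this one, so this one was tested with limma. The p-values were adjusted by Benjamini-Hochberg over all 8455 probes. Genes and tests were chosen with earlier results of these data known, so the test is not fully independent of the choice. Averaged over the 7 DR times, Csrp3 was at 0.04 ± 0.15 (95% interval -0.27 to 0.35, adjusted p = 0.927), Ankrd1 at 0.13 ± 0.16 (-0.19 to 0.44, adjusted p = 0.733) and Rrad at -0.09 ± 0.15 (-0.40 to 0.21, adjusted p = 0.801) from CON(DR) on the log2 scale. As levels relative to CON(DR), these intervals run from 0.83- to 1.27-fold for Csrp3, 0.878- to 1.36-fold for Ankrd1 and 0.759- to 1.16-fold for Rrad. For this mean limma called 0 of 3 members, against 6.62% of all probes. By the test over the course, with at least a 1.5-fold difference at any time, it also called 0 of 3, against 7.81% of all probes. At single times, with the same fold limit, 0 of 3 members passed at any DR time, against 15.8% of all probes at 1 DR time or more. Over the members' 21 values the adjusted p was 0.203 or higher (limma). For 0 of 3 members did the DR channels lie wholly above or below the CON(DR) channels at any time, against 40.7% of all probes.

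Csrp3 had intensities of 70, 83 and 90 in CON(DR), and of 58, 71, 56 and 69 at 6 h, 66, 66, 72, 91 and 86 at 12 h and 68, 74 and 77 at 24 h after the DR lesion. They were 101, 80, 121 and 117 at 48 h, 95, 84 and 103 at 72 h, 73, 79 and 68 at 7 d and 57, 123 and 123 at 14 d. The channels of every DR time overlapped those of CON(DR). The largest log2 difference was 0.38 ± 0.19 at 48 h and the lowest -0.33 ± 0.19 at 6 h. The course test gave an adjusted p of 0.0552 (limma), the nearest to the threshold of the 3 genes.

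That value moved with the channels that stand apart and with other choices of the fit. Csrp3 was at 103 to 123 in those 4 channels (median 120), against 56 to 121 in the other 21 DR channels (median 73). Without the 4 channels its mean over the times was -0.09 (adjusted p = 0.839) and its course test gave an adjusted p of 0.126 (limma), with -0.43 at 14 d as the largest difference, from the 1 channel left there. Without DR14d replicate 1, at 57, the course gave an adjusted p of 0.00209 with a largest difference of 0.58 at 14 d, which is still under 1.5-fold. With the replicate number as a block the adjusted p was 0.0272, and the largest difference, at 6 h, was -0.40. With all channels kept and dim probes left out, the adjusted p was 0.0428 (limma). With only the DR and CON(DR) channels fitted it was 0.248, and the largest difference was 0.38 in both. So the course test passed or failed with these choices, and the fold limit was reached in none of them.

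Ankrd1 had intensities of 77, 59 and 55 in CON(DR) and of 52 to 93 (median 66) in the 25 channels after the DR lesion. Its largest difference was 0.39 ± 0.21 at 14 d (72, 84 and 93) and its course test gave an adjusted p of 0.483 (limma). In the 4 channels that stand apart Ankrd1 was at 84 to 93, above all other DR channels at 52 to 79. Without them its largest difference was 0.23 and the course test gave an adjusted p of 0.998.

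Rrad had intensities of 149, 123 and 146 in CON(DR) and of 89 to 189 (median 129) in the 25 channels after the DR lesion. Its largest difference in size was -0.33 ± 0.20 at 24 h (136, 93 and 101), and its highest 0.26 ± 0.20 at 7 d (175, 189 and 138). The course test gave an adjusted p of 0.270 (limma). In the 4 channels that stand apart Rrad was at 123 to 143, within the other DR channels.

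Within the DR series, the mean of the 4 later pools (48 h to 14 d) minus the mean of the 3 earlier pools (6 to 24 h) was 0.35 for Csrp3, 0.13 for Ankrd1 and 0.11 for Rrad on the log2 scale. The 4 channels that stand apart all lie in later pools, and without them the differences were 0.14, 0.043 and 0.10. An exact two-sided permutation test over the 7 pools gave p = 0.114, 0.371 and 0.571 for the 3 genes, where the smallest p that 35 splits allow is 0.0286. Over all probes, 3.45% passed an unadjusted p of 0.05 in this test. The matching SN differences, not tested, were 3.06, 1.53 and 1.73.

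In the authors' deposited table the 21 DR coefficients of the 3 genes ran from -0.33 to 0.22. The lowest in the authors' deposited table was Csrp3 at 12 h (-0.33 ± 0.13) and the highest Ankrd1 at 14 d (0.22 ± 0.19). Csrp3 averaged -0.13 over the DR times in the authors' deposited table, Ankrd1 0.05 and Rrad 0.05, so that Csrp3 and Rrad had the opposite sign to the channel fit.

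**Figure D3:**
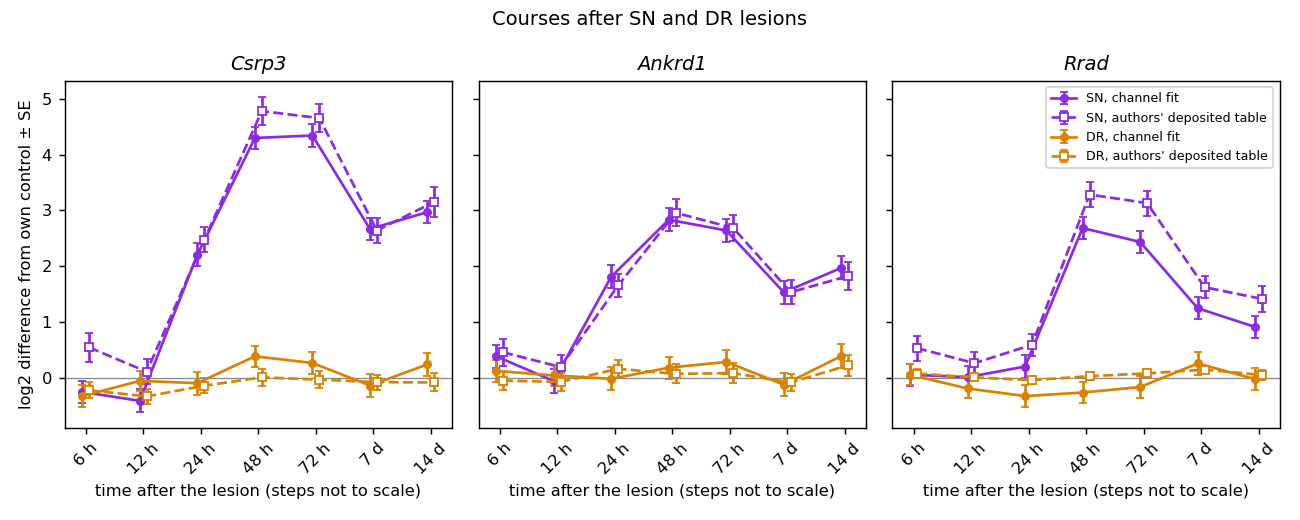
Log2 difference ± SE at the 7 times after the SN and the DR lesion. Values of the channel fit (filled, solid) are against the own control. Those of the authors' deposited table (open, dashed) are against the authors' time zero. SN courses reach 4.34 for Csrp3, 2.83 for Ankrd1 and 2.68 for Rrad in the channel fit, and all DR values lie between -0.33 and 0.39.

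Set side by side at the same time, the mean intensity of Csrp3 at 48 h was 1915 after the SN lesion and 105 after the DR lesion, that of Ankrd1 483 and 71.8, and that of Rrad 964 and 115. At 14 d the means were 738 and 101 for Csrp3, 265 and 83.0 for Ankrd1 and 279 and 137 for Rrad, again with SN first. From 24 h to 14 d all SN channels of all 3 genes lay above all DR channels of the same time, as for 1.38% of all probes. At 6 and 12 h the SN and DR channels of each gene overlapped. The SN and DR pools were hybridised in separate loops and the SN values chose the genes, so this difference was not tested.

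The genes whose pattern was most like that of each member were ranked by Pearson r of log2 pool levels over the 16 pools, among 1497 probes with 1 gene symbol and a range of at least 1 on the log2 scale. Ankrd1 and Csrp3 were each other's nearest gene, with r = 0.986. Next to Csrp3 came Arg1, an arginine-degrading enzyme (0.978), Tgm1, a transglutaminase of the skin barrier (0.967), Gch1, the first enzyme of tetrahydrobiopterin synthesis (0.966), and Il4r, the receptor chain for interleukin 4 (0.962). Next to Ankrd1 came Arg1 (0.980), Gch1 (0.964), Il4r (0.960) and the small proline-rich Sprr1a (0.947). Nearest to Rrad were Hamp, the iron-regulating hormone hepcidin (0.936), Cdhr5, a cadherin-related membrane protein (0.935), Gch1 (0.934), the peptide urocortin, Ucn (0.931), and Sprr1a (0.929). These r values describe 16 pools in 2 loops and carry no test. Within the 7 SN pools alone they were 0.98 for Ankrd1 with Csrp3, 0.97 for Arg1 with Csrp3, 1.00 for Il4r with Csrp3, 0.94 for Hamp with Rrad and 0.96 for Ucn with Rrad. Within the 7 DR pools the same pairs had r of 0.66, 0.82, -0.39, 0.45 and -0.76.

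All 8 of these genes that are no members had their largest SN difference at 48 or 72 h, from 1.12 for Sprr1a to 3.10 for Arg1 on the log2 scale. Arg1 was at 1.61 at 24 h, 3.10 at 48 h and 1.11 at 7 d, close in shape to Ankrd1 at 1.81, 2.83 and 1.53. Tgm1 was at 0.94 at 24 h and still at 2.19 at 14 d. Hamp was at 0.68 at 24 h and 2.40 at 72 h, and Ucn at 0.58 and 2.69. Over the DR times their means ran from 0.00 to 0.37. At single DR times they ran from -0.37 ± 0.21 (Hamp at 12 h) to 0.62 ± 0.20 (Arg1 at 48 h), with Cdhr5 at 0.59 ± 0.19 at 48 h. DR differences smaller than the SN peaks are part of the likeness itself and are not tested.

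**Figure D4:**
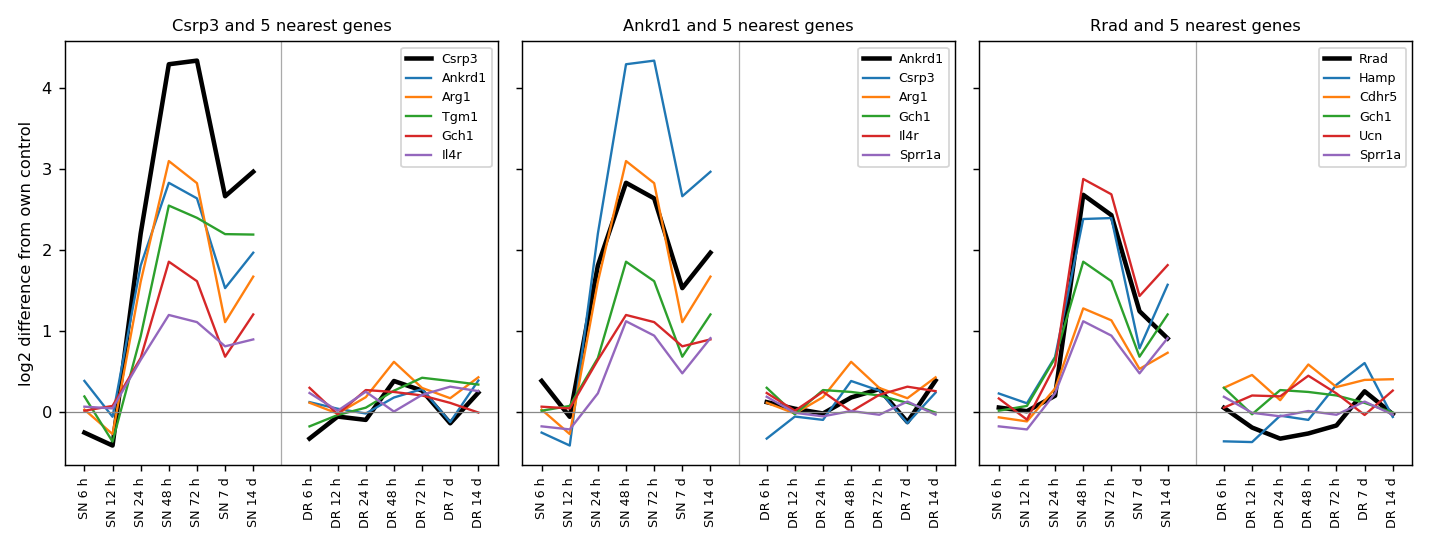
Log2 difference from the own control over the SN times (left of each panel) and the DR times (right) for each member (black) and its 5 nearest genes (coloured). The nearest genes share the high values at 48 and 72 h after the SN lesion, with peaks from 1.12 for Sprr1a to 4.34 for Csrp3.

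The relatives and partners of the members were described from lists, with the mean of the 7 times against the own control. Over all probes limma called 1.29% for the SN mean (0.733% higher and 0.556% lower) and 6.62% for the DR mean (3.81% higher and 2.81% lower). The share of all probes at an unadjusted p below 0.05 is not given here, so nothing is read from list counts at that threshold. Of 13 measured LIM-domain relatives of Csrp3 (24 listed), 1 rose, 0 fell and 12 were not called after the SN lesion (1 at an unadjusted p below 0.05, list median 0.01 against 0.00 for all probes). It was Pdlim1, a PDZ and LIM protein of actin fibres, by 0.58 ± 0.13 (adjusted p = 0.00975), and its call was lost without CON(SN) replicate 1 or 2 (0.53 and 0.57; adjusted p = 0.134 and 0.110), and without the dye term (0.51; adjusted p = 0.235). Csrp1, the closest measured relative of Csrp3, was at -0.14 ± 0.12 after the SN lesion (adjusted p = 0.995) and -0.02 ± 0.12 after the DR lesion (adjusted p = 0.961). After the DR lesion 0 of the 13 rose and 1 fell (4 at an unadjusted p below 0.05), the kinase Limk1 by 0.72 ± 0.16 (adjusted p = 0.00373). Without CON(DR) replicate 2 Limk1 was at -0.42 (adjusted p = 0.173), and with only the DR and CON(DR) channels fitted at -0.72 (adjusted p = 0.0568). In the authors' deposited table Limk1 averaged -0.48 over the DR times.

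Of 9 measured ankyrin repeat relatives of Ankrd1 and titin or Z-disc partners (21 listed), limma called 0 in either lesion, with 0 at an unadjusted p below 0.05 in SN and 4 in DR. Their medians were -0.02 in SN and -0.19 in DR, against 0.00 and 0.00 for all probes. Ankrd23, a titin-binding relative of Ankrd1, was at -0.14 ± 0.12 in SN and -0.19 ± 0.12 in DR (adjusted p = 0.992 and 0.448, limma).

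Of 16 measured RGK GTPases and calcium channel genes (24 listed), 1 rose and 0 fell in SN (3 at an unadjusted p below 0.05), and 1 rose and 1 fell in DR (7 at that threshold). In SN it was Cacna2d1, the alpha-2-delta subunit that carries calcium channels to the membrane, by 1.00 ± 0.13 (adjusted p = 1.56e-06), with 1.58 at 48 h and 1.55 at 72 h. Rem2, the measured relative of Rrad, was at -0.58 ± 0.19 in SN (adjusted p = 0.160) and 0.09 ± 0.19 in DR (adjusted p = 0.853). In DR the beta subunit Cacnb3 rose by 0.94 ± 0.16 (adjusted p = 0.000150), while in SN it was at 0.05 ± 0.16. The calcium-dependent kinase Camk2g fell by 1.57 ± 0.40 in DR (adjusted p = 0.0124), a call lost without CON(DR) replicate 2 or 3 (-1.43 and -1.50; adjusted p = 0.0796 and 0.0758), or with only the DR and CON(DR) channels fitted (-1.56; adjusted p = 0.0788). In the authors' deposited table Cacnb3 averaged 0.21 and Camk2g -0.14 over the DR times. The list medians were -0.07 in SN and -0.06 in DR.

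Of 22 measured genes of the cardiac and muscle stress response (31 listed), 3 rose and 0 fell in SN (4 at an unadjusted p below 0.05), with a list median of 0.13. The transcription factor Atf3 rose by 3.15 ± 0.17 (adjusted p = 1.49e-17), the protease inhibitor Timp1 by 0.55 ± 0.14 (adjusted p = 0.0299) and the matrix phosphoprotein Spp1 by 0.54 ± 0.14 (adjusted p = 0.0387). The Timp1 call was lost without CON(SN) replicate 1 or 3 (0.46 and 0.54) or without the dye term (0.50). The Spp1 call was lost without any 1 of the 3 CON(SN) channels, SN12h replicate 2, SN24h replicate 3, SN48h replicate 2 or SN72h replicate 3 (0.51 to 0.56), and without the dye term (0.60). In DR 2 of the 22 rose and 0 fell (5 at an unadjusted p below 0.05), Atf3 by 1.87 ± 0.17 and Timp1 by 0.71 ± 0.14, with a list median of 0.10. In the authors' deposited table Atf3 averaged 1.66 and Timp1 0.17 over the DR times.

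In the fit to all channels, no measured skeletal, cardiac or smooth muscle marker was called in either lesion. Of 32 measured skeletal and cardiac muscle markers (45 listed) limma called 0 in SN, with 0 at an unadjusted p below 0.05, and 0 in DR, with 3 at an unadjusted p below 0.05. Their SN means ran from -0.29 to 0.25, with a median of 0.00, and the median of the DR means was -0.15. The summed intensity of the 32 markers was 3240 to 7398 (median 4499) in the 21 SN channels and 3908 to 5220 in the 3 CON(SN) channels. At 48 h, where Ankrd1 and Rrad were highest, the sum was 3638, 4284 and 5135. None of the 8 measured defining markers (of 13) was called in SN or listed at 0. Ckm, muscle creatine kinase, was at 34 to 76 in SN channels and 38 to 74 in CON(SN) channels, and the cardiac myosin Myh6 at 32 to 101 and 52 to 69. The SN medians of Ckm (50), Myh4 (54) and Myh6 (61) lay below the channels' lower quartile of 67 to 69. Those of Myh2 (69), Myh7 (72), Myl11 (77), Tnni2 (143) and Actc1 (372) did not. At such low signals a small change could be missed. Actc1, cardiac actin, was the brightest, at 289 to 834 in SN channels and 356 to 445 in CON(SN) channels. Of 8 measured smooth muscle markers (12 listed) 0 were called in either lesion (2 in SN and 1 in DR at an unadjusted p below 0.05), with sums of 4141 to 8394 in SN channels and 4073 to 7828 in CON(SN) channels.

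**Figure D5:**
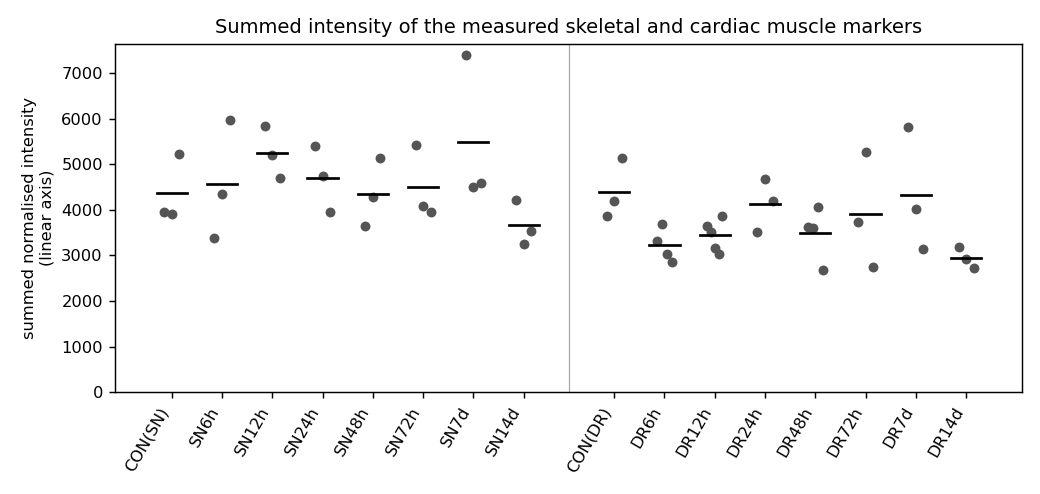
Summed normalised intensity (linear axis from 0) of the 32 measured skeletal and cardiac muscle markers in each channel, by group; bars are the means of the channels. The SN channels at 3240 to 7398 overlap the CON(SN) channels at 3908 to 5220.

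Some macrophage markers were also higher in SN. Of 8 measured (14 listed) 4 rose and 0 fell: Cd74 by 0.92 ± 0.19, Aif1 by 0.81 ± 0.16, Ctss by 0.66 ± 0.16 and Csf1r by 0.51 ± 0.13. The other 4 were not called, with Cd14 at 0.30 (0.61 at 48 h and 0.09 at 72 h), C1qb at 0.03, Lyz2 at 0.09 and Tyrobp at 0.01. At 48 h, where Ankrd1 and Rrad were highest, Aif1 was at 1.20, Csf1r at 0.68, Ctss at 0.62 and Cd74 at 0.61. Their summed intensity was 3965 to 8745 (median 5520) in SN channels and 3956 to 4264 in CON(SN) channels. Each of these calls was lost without at least 1 single CON(SN) channel, at values of similar size: Cd74 without replicate 2 (0.80), Aif1 without replicate 3 (0.77), Ctss without replicate 1 or 3 (0.63 and 0.55), and Csf1r without replicate 1, 2 or 3 (0.45, 0.61 and 0.47) or without SN72h replicate 3 (0.48). The Csf1r call was also lost without the dye term (0.47) and with quantile normalisation (0.50). In DR, where no member was called, 1 of the 8 rose (Ctss by 0.63 ± 0.16, lost without CON(DR) replicate 1 or 2), with sums of 4325 to 7421 and 3634 to 5718 in CON(DR). Among 11 glial markers the filament gene Gfap alone rose in SN (0.98 ± 0.15), and the other 10, not called, were at -0.54 to -0.03, with a list median of -0.19. The glial sum was 36356 to 73647 (median 55518) in SN channels and 63236 to 67738 in CON(SN) channels. In DR Gfap (0.72 ± 0.15) and the neuregulin receptor Erbb3 (0.42 ± 0.12) rose. Among 17 neuron markers the synaptic gene Snap25 alone rose in SN (0.90 ± 0.15). In DR Snap25 (1.85 ± 0.15) and the hydrolase Uchl1 (0.47 ± 0.12) rose, and the neurotrophin receptor Ntrk3 (-0.56 ± 0.16) and the neurofilament Nefm (-0.52 ± 0.16) fell. At an unadjusted p below 0.05 there were 4 macrophage markers in SN and 2 in DR, 4 and 5 glial markers, and 4 and 5 neuron markers. Of 9 fibroblast and endothelial markers 0 were called in SN (1 at an unadjusted p below 0.05). In DR (5 at that threshold) fibronectin, Fn1 (0.97 ± 0.16), and the collagen Col1a2 (0.51 ± 0.16) rose. Of these, the DR calls of Gfap, Erbb3, Uchl1, Ntrk3, Nefm and Col1a2 were each lost without at least 1 CON(DR) channel. Ntrk3 was at -0.26 without CON(DR) replicate 1, and Nefm at -0.15 with quantile normalisation (adjusted p = 0.556, limma). In the authors' deposited table the DR means were smaller for Ctss (0.15), Gfap (0.37), Uchl1 (0.15) and Ntrk3 (-0.20). They were nearer to the channel fit for Erbb3 (0.42), Snap25 (1.58), Nefm (-0.54), Fn1 (0.75) and Col1a2 (0.46). Without the 4 channels that stand apart the calls of Nefm, Erbb3 and Col1a2 were lost (-0.53, 0.37 and 0.51; adjusted p = 0.0675, 0.0532 and 0.0655, limma). The part of other cell types in the members' levels was not tested.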

How the data were processed

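Two-colour oligonucleotide arrays measured 8455 probes in 52 channels of 16 groups. The values deposited by the authors for the channels are linear intensity values on a common scale; how they were normalised and background-corrected is not given in the sources used here, and limma is named, with no version, in the submitters' processing notes. A second deposited table holds the authors' log2 coefficients per time and their standard errors. The labels' design text describes an interwoven loop.

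Log2 of the intensity was taken with no pseudocount, and limma 3.58.1 in R 4.3.3 was fitted to all 52 channels with group and dye as terms, p-values adjusted by Benjamini-Hochberg over all probes and called below 0.05 (single times and courses with at least 1.5-fold as well). The number of arrays limits the precision. Of 6907 probes with 1 symbol, 6885 took the current symbol by gene identifier, 3 by accession and 19 kept the old one; 168 had several symbols and 1380 none. The brightest probe stood for a list gene with several. Named were the members, their 5 nearest genes, called genes of the lists (at most 4 per list and lesion) and measured paralogs. The members, lists and tests were chosen with earlier results of these data known. The fits were tested on simulated data with independent noise in every channel, which does not cover noise that channels of an array share. Same-numbered channels of different groups, after group and dye were removed, had residual correlations from -0.66 to 0.65. Their medians were 0.04 in DR and -0.02 in SN, against -0.03 and 0.01 for different numbers, so the numbers showed no pairing. The fit held no term for the array that channels share, so its errors and p-values take channels as independent. Residual correlations between channels of different number nonetheless reached 0.80 in DR and 0.75 in SN. What an array term would change was not tested. Alternatives covered dye, normalisation, pseudocount, dim probes, channels fitted, replicate block, single channels, the deposited coefficients and, chosen after seeing the data, the channels that stand apart.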

Additional observations from a re-analysis of the deposited data

How the results depend on the processing

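The SN differences of the 3 genes stayed positive at 24 h, 48 h, 72 h, 7 d and 14 d under all alternatives run. The SN peaks of Csrp3, Ankrd1 and Rrad were 3.77, 2.16 and 2.34 with log2(value + 50), and 4.78 for Csrp3 and 3.28 for Rrad in the authors' deposited table; the SN means were 1.91 for Csrp3 and 1.15 for Ankrd1 with the pseudocount, and 2.62 and 1.55 for Csrp3 and Rrad in the deposited table. Csrp3 at SN12h was 0.11 in that table. In DR no member was called under any alternative, but signs turned. Csrp3's DR mean was -0.13 in the deposited table and -0.086 without the 4 channels that stand apart, and its largest course value -0.40 with the replicate block, -0.33 in the deposited table and -0.43 without those channels. Leaving out single channels gave -0.086 to 0.18 for its mean, -0.45 to 0.58 for the Csrp3 course and -0.50 to 0.37 for the Rrad course. In the deposited table Rrad's DR mean was 0.049 and its course value 0.15. Single DR times also turned: in the deposited table Csrp3 at 72 h (-0.034) and 14 d (-0.083, and -0.43 without the 4 channels), Ankrd1 at 6 h (-0.051), 12 h (-0.073) and 24 h (0.16), and Rrad at 12 h (0.0072), 48 h (0.028), 72 h (0.079) and 14 d (0.050, and 0.094 without the 4 channels); with the replicate block Rrad at 6 h (-0.030). Without single channels the ranges were -0.18 to 0.086 (Csrp3 12 h), -0.22 to 0.047 (Csrp3 24 h), -0.051 to 0.18 (Ankrd1 12 h), -0.11 to 0.12 (Ankrd1 24 h), -0.21 to 0.016 (Ankrd1 7 d), -0.048 to 0.16 (Rrad 6 h), -0.31 to 0.081 (Rrad 72 h) and -0.13 to 0.047 (Rrad 14 d). With only the lesion's channels and its control fitted, calls over all probes were 217 (109 with all channels) for the SN mean and 222 (560 with all channels) for the DR mean; without single channels they were 58 to 140, lowest without each CON(SN) channel (64, 58 and 60), and 278 to 760, lowest without CON(DR) replicate 1. The cause was not tested. The replicate block, a number that showed no pairing, gave 111 calls for the SN mean. Its DR means were 0.00, 0.10 and -0.13 for Csrp3, Ankrd1 and Rrad, and it changed no call of a member. Without SN6h replicate 3 and DR7d replicate 1 the genes called in DR numbered 2 of the LIM list, 2 of the ankyrin and Z-disc list, 4 of the RGK and calcium channel list and 2 of the macrophage list (1, 0, 2 and 1 with them); without the 4 channels that stand apart 1 smooth muscle marker and 1 glial marker were called (0 and 2 with them). Signals of Csrp3 and Ankrd1 in controls, 54 to 131, lie in the lower part of the channels' range (upper quartile 376.5 to 397), which limits how far a fall could show.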
